A study of Mus musculus with 12 samples.

Results

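The genes described here mark endothelial cells, the lining of blood vessels, or build the junctions between them. They were chosen by symbol from a list of 10: Pecam1, Cdh5, Esam, Cldn5, Emcn, Myct1, Eng, Sox17, Tek1 and Erg. Of these, 9 were found among the 16218 genes of the table, and all 9 had a mean of at least 5 normalized counts and were tested. Tek1 was not analysed here. Tek, the gene of the angiopoietin receptor Tie2, is a row of the table and is given below as a neighbour that is no member. The samples were poly-A RNA of hearts of 12 wild-type female mice aged 12 weeks, with 4 animals per group and 1 library per animal. Sham mice were operated without infarction. MI+PBS mice had an infarction, made by tying off the left anterior descending artery for good, and phosphate-buffered saline, the vehicle, and MI+Agrin mice had the same infarction and agrin, a heparan sulfate proteoglycan of the extracellular matrix. RNA was taken 2 weeks after infarction, and the labels give neither the part of the heart sampled nor the dose and route of agrin. The design text lists a further infarcted wild-type group that was not used here.

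Endothelial cells hold together through adherens junctions, built on VE-cadherin, and tight junctions, which contain claudin-5 and the adhesion molecule Esam. Pecam1 also sits at cell contacts, whereas endomucin coats the luminal surface of capillaries and veins and endoglin is a co-receptor for ligands of the TGF-beta family. The transcription factors Erg, of the ETS family, and Sox17 help to maintain endothelial and arterial identity. In the heart, capillary endothelium runs beside nearly every cardiomyocyte, and an infarction damages and remodels this bed.

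The recovered depth was 20238512 to 22742027 reads in 11 libraries; sham replicate 2, whose reads could not be recovered, summed to 21695925 normalized counts. On principal components of all genes, MI+PBS replicate 2 lay farther along the first than the other MI+PBS libraries (45.2 against 21.1 to 24.9), and MI+Agrin replicate 1 lay away from its group along the second (-40.2 against -10.3 to 12.9). Leaving out these libraries together kept the calls of Esam, Myct1 and Sox17 in every comparison in which they passed. Cardiomyocyte markers were high in every library, with a summed level of 1582033 to 1836115 in sham, 1001405 to 1447952 in MI+PBS and 1378283 to 1555544 in MI+Agrin hearts, in normalized counts. These are bulk samples, so for every result below fewer cells of a type and less RNA per cell cannot be told apart.

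Myct1, Esam and Sox17 were the members that differed clearly between groups, and each had its own pattern. Myct1 was lower in MI+PBS than in sham hearts (fold 0.701) and higher in MI+Agrin than in MI+PBS hearts (fold 1.81). Esam was higher in MI+PBS than in sham hearts (fold 1.27) and was close to its sham level in MI+Agrin hearts (fold 1.01 against sham). Sox17 was higher than sham in both infarcted groups, by 1.36 and 1.35 fold. Pecam1, Cldn5, Emcn, Eng and Erg passed in 0 of the 3 comparisons, although Pecam1 had an unadjusted p of 0.0401 in MI+PBS against sham, and Cdh5 was called at the edge of the threshold in MI+Agrin against sham. Fold changes and adjusted p-values come from limma on log2(normalized count + 1), fitted over all 14906 genes tested, with Benjamini-Hochberg adjustment and a threshold of 0.05.

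In MI+PBS against sham, 2 members rose, 1 fell and 6 did not pass, which is 33.3% of 9 beside 44.4% of all genes tested (22.6% higher and 21.8% lower). In MI+Agrin against MI+PBS, 1 rose, 1 fell and 7 did not pass, which is 22.2% of the members beside 1.64% of all genes tested (0.751% higher and 0.892% lower). In MI+Agrin against sham, 2 rose, 1 fell and 6 did not pass, or 33.3% beside 28.6% (15.4% higher and 13.2% lower). The shares against sham are near or below those of all genes. The share between the infarcted groups rests on 2 genes, of which Esam was lost with the replicate number as a block. The members were chosen with earlier results of these data known, so this share cannot show how endothelial genes as a set differ from other genes. The groups did not overlap for 3, 2 and 3 members in these comparisons, beside 41.9%, 9.04% and 32.4% of all genes. The median log2 fold change over the 9 members was 0.07, -0.01 and 0.09, beside -0.01, 0.00 and 0.00 over all genes. The 3 comparisons share libraries in pairs, and are therefore given side by side for each gene. The number of genes called in MI+Agrin against MI+PBS moved with the setting. It was 245 with limma over 12 libraries and 106 with limma on only the 8 libraries compared, and on the recovered reads of 11 libraries it was 602 with DESeq2 and 192 with edgeR; with each of these settings Myct1 and Esam were the 2 members called.

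**Figure D1:**
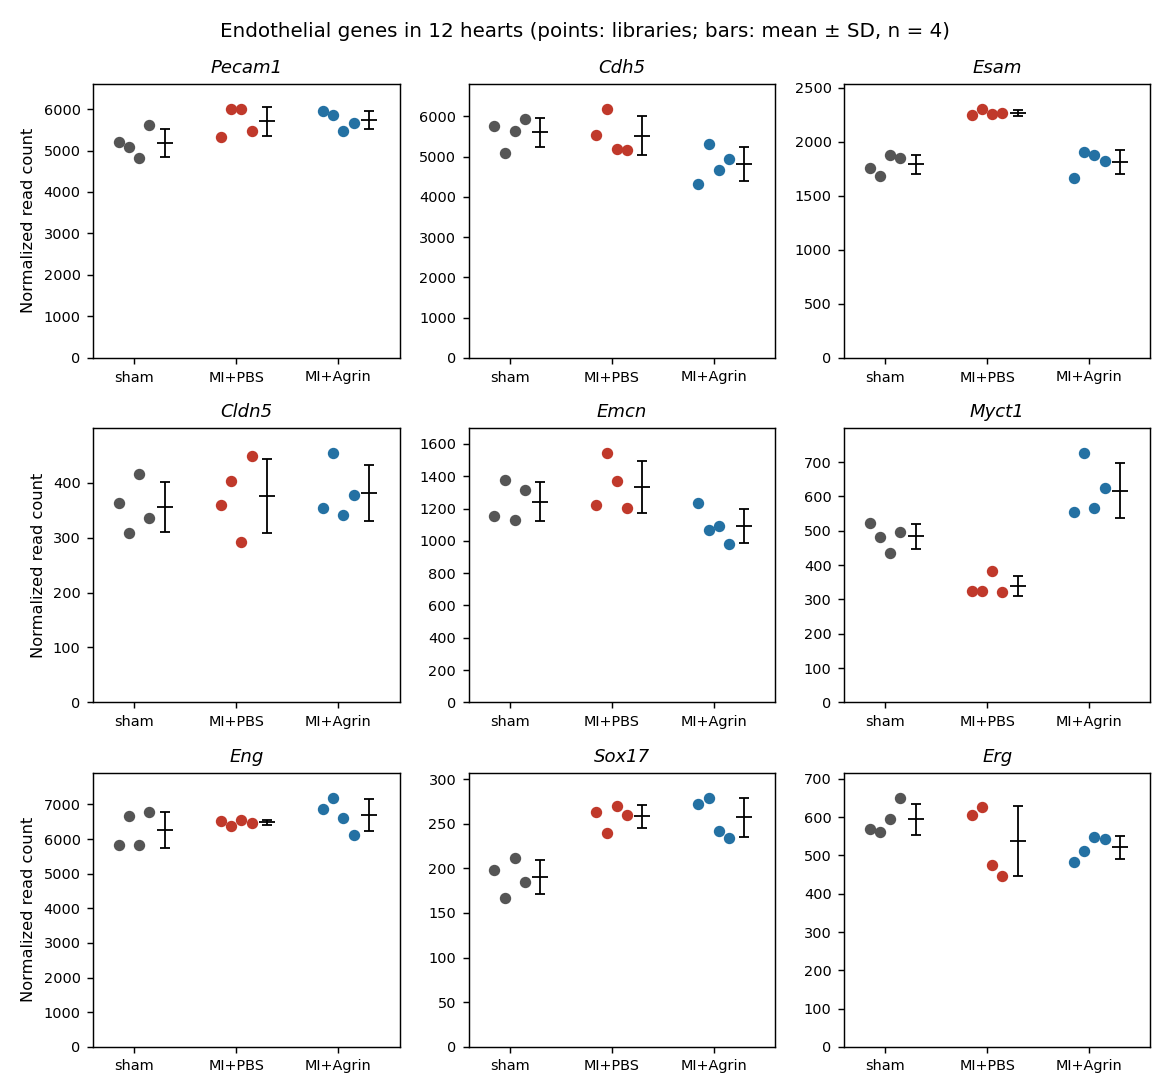
Normalized count of each member in the 12 libraries (points, linear axes from 0), by group, with the group mean and SD. Myct1 is lowest in MI+PBS and highest in MI+Agrin without overlap, Esam is higher in the 4 MI+PBS libraries than in all others, and Sox17 is higher in both infarcted groups than in sham.

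**Figure D2:**
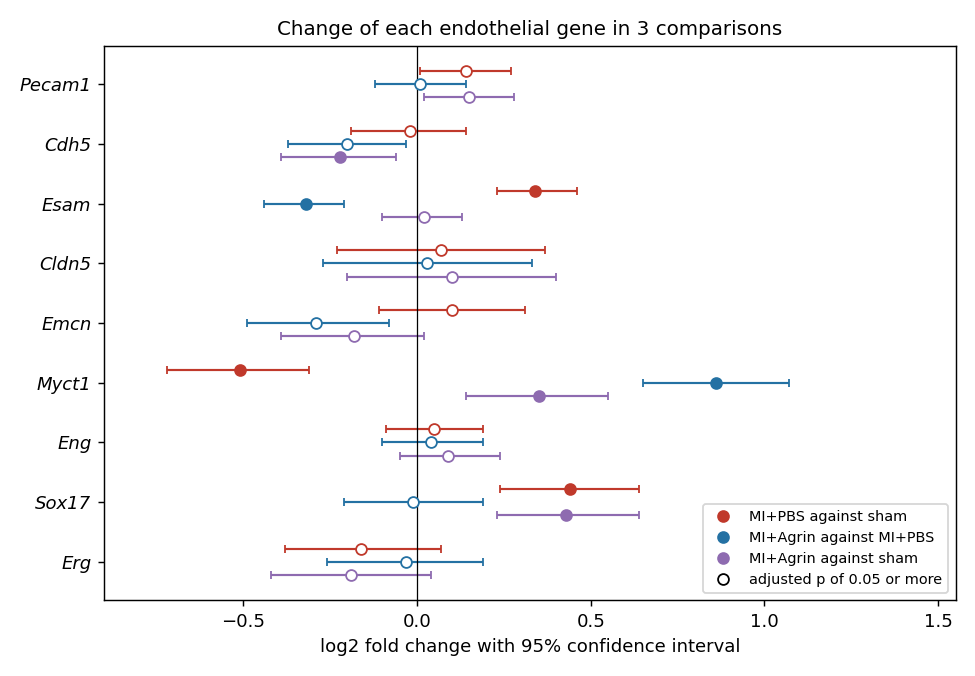
Log2 fold change of each member in the 3 comparisons, with its 95% confidence interval; filled points have an adjusted p under 0.05. Most members lie within 0.3 of 0 on the log2 scale, and Myct1 moves furthest, from -0.51 in MI+PBS against sham to 0.86 in MI+Agrin against MI+PBS.

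Per kilobase of exon, the sham levels spanned from Eng, the highest, to Sox17, the lowest. The means in sham hearts, in normalized counts per kb (SD, n = 4), were 1549 ± 128 for Eng, 1333 ± 86.6 for Cdh5, 832 ± 53.7 for Pecam1 and 625 ± 31.6 for Esam. Cldn5 (251 ± 32.4), Emcn (230 ± 22.3), Erg (172 ± 11.6), Myct1 (170 ± 12.9) and Sox17 (39.9 ± 3.97) followed on the same scale. Of the neighbours in this order, Cldn5 and Emcn overlapped, as did Erg and Myct1, and the other neighbours did not. The order kept Eng, Cdh5, Pecam1 and Esam at the top in all 3 groups. Myct1 changed place: its mean per kb was 119 ± 10.2 in MI+PBS hearts, below Erg (155 ± 26.2), and 217 ± 27.7 in MI+Agrin hearts, where its range (195 to 255) lay above that of Erg (139 to 158) and overlapped those of Emcn (182 to 228) and Cldn5 (241 to 321).

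Cdh5 encodes VE-cadherin, the transmembrane cadherin of endothelial adherens junctions (mm10, chr8:104101625-104144511, plus strand). Its normalized counts, in order of replicate number, were 5758, 5093, 5627 and 5939 in sham, 5535, 6191, 5197 and 5166 in MI+PBS and 4311, 5311, 4675 and 4930.3 in MI+Agrin hearts. The MI+PBS and sham values overlapped, and the MI+Agrin values reached lower but overlapped both other groups. Cdh5 was 4807 ± 421 (SD, n = 4) in MI+Agrin against 5604 ± 364 in sham hearts, a log2 change of -0.22 ± 0.08 (SE, adjusted p = 0.0469). This call sat at the threshold and was kept under 7 of 23 alternative settings, over which the adjusted p ran from 0.0249 to 0.18. It was lost with the replicate number as a block (-0.17, adjusted p = 0.18), with edgeR on recovered reads (-0.20, adjusted p = 0.122) and on leaving out any 1 library other than sham replicate 3, MI+PBS replicate 2 and MI+Agrin replicate 3 (log2 changes of -0.27 to -0.17 over the 12). Against MI+PBS the difference was -0.20 ± 0.08 and did not pass (adjusted p = 0.2), and MI+PBS against sham gave -0.02 ± 0.08 (adjusted p = 0.834).

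Esam encodes an immunoglobulin-type adhesion molecule of endothelial tight junctions that platelets also carry (chr9:37528078-37538319, plus strand). Normalized counts were 1756, 1680.0, 1878 and 1851 in sham, 2247, 2309, 2257 and 2263 in MI+PBS and 1661, 1908, 1874 and 1819 in MI+Agrin hearts. Each MI+PBS library lay above every sham and every MI+Agrin library, and the latter groups overlapped. The MI+PBS mean was 2269 ± 27.3 (SD, n = 4), against 1791 ± 90.7 in sham and 1816 ± 109 in MI+Agrin hearts. Esam rose in MI+PBS against sham by 0.34 ± 0.05 in log2 units (adjusted p = 0.000317), was lower in MI+Agrin than in MI+PBS hearts (-0.32 ± 0.05, adjusted p = 0.00855), and did not pass in MI+Agrin against sham (0.02 ± 0.05, 95% interval -0.10 to 0.13, adjusted p = 0.82). The first call held under all 23 alternatives, and the second was lost with the replicate number as a block (-0.34, adjusted p = 0.0531).

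Platelet and megakaryocyte markers summed to 412 to 659 in sham, 919 to 1281 in MI+PBS and 843 to 1064 in MI+Agrin hearts, in normalized counts, and of the 6 tested Pf4 rose (1.47 ± 0.16, adjusted p = 3.68e-05) and Gp1ba fell (-0.80 ± 0.19, adjusted p = 0.00498) in MI+PBS against sham. This was 33.3% of the 6 beside 44.4% of all genes. In MI+Agrin against MI+PBS 0 of 6 passed, beside 1.64% of all genes. Pf4, the gene of platelet factor 4, made up most of this sum, at 246 to 382 in sham, 725 to 993 in MI+PBS and 538 to 810.0 in MI+Agrin. Ppbp (0.72), Itga2b (0.54), Gp1bb (0.46) and Gp9 (-0.03) did not pass in MI+PBS against sham. The part of other cells, macrophages among them, in the Pf4 values was not tested, so the sum is no measure of platelets alone. No platelet marker in the table was at 0 in all libraries, and their part in the Esam and Pecam1 results was not tested.

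Cldn5 encodes claudin-5, the main claudin of endothelial tight junctions (chr16:18776847-18778262, plus strand). Claudin-5 transcripts had normalized counts of 363, 308, 415 and 336 in sham, 359.6, 404, 291 and 448 in MI+PBS and 354, 454, 341 and 377 in MI+Agrin hearts. The 3 groups overlapped throughout, and the lowest and the highest value of each group lay far apart. The log2 changes were 0.07 ± 0.14 in MI+PBS against sham, 0.03 ± 0.14 in MI+Agrin against MI+PBS and 0.10 ± 0.14 in MI+Agrin against sham, with adjusted p-values of 0.704, 0.928 and 0.615. The 95% interval of MI+Agrin against MI+PBS ran from -0.27 to 0.33, so changes within it were not excluded.

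In MI+PBS against sham, partners of these junction proteins were called in both directions. Of 16 adherens junction partners and regulators, 5 rose and 4 fell in that comparison (56.2% called beside 44.4% of all genes, median log2 change 0.07). In MI+Agrin against sham 3 rose and 4 fell (43.8% beside 28.6%, median -0.03). In MI+Agrin against MI+PBS 0 of the 16 passed (beside 1.64% of all genes, median -0.03). Rap1b, a small GTPase that strengthens cadherin adhesion, rose by 0.59 ± 0.08 in MI+PBS hearts (adjusted p = 0.000155). Vcl, the gene of the actin linker vinculin, rose by 0.31 ± 0.06 (adjusted p = 0.00116). Afdn (Mllt4 in the table), which encodes the junction scaffold afadin, fell (log2 change -0.39 ± 0.07, adjusted p = 0.00079).

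Of 14 tight junction genes, 1 rose and 6 fell in MI+PBS against sham (50% called beside 44.4% of all genes, median -0.22). In MI+Agrin against sham 0 rose and 3 fell (21.4% beside 28.6%, median -0.08). In MI+Agrin against MI+PBS 0 of the 14 passed (beside 1.64% of all genes, median 0.05). Jam2, an endothelial junctional adhesion molecule, had 5751 to 6398 in sham, 4407 to 4715 in MI+PBS and 4729.9 to 5233 in MI+Agrin normalized counts. It fell by 0.42 ± 0.05 (log2) in MI+PBS hearts (adjusted p = 7.31e-05) and was still below sham in MI+Agrin hearts (-0.29 ± 0.05, adjusted p = 0.00182). Tjp1, the gene of the scaffold ZO-1, fell in MI+PBS hearts (-0.28 ± 0.05, adjusted p = 0.0012). Many of these genes, Tjp1 and Vcl among them, are also expressed by cardiomyocytes and other heart cells. Cardiomyocyte markers fell in 4 of 8 cases in MI+PBS against sham, beside 21.8% of all genes lower. Among these, the call of Tnnt2 (-0.35 ± 0.13, adjusted p = 0.0463) held under 7 of 23 alternatives. Myh6 (-0.51), Ryr2 (-0.18), Ttn (0.07) and Actc1 (0.02) did not pass. The part of cardiomyocytes in the counts of junction genes was not tested.

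Pecam1 encodes CD31, an adhesion molecule of endothelial contacts that platelets and leukocytes carry as well (chr11:106654217-106750628, minus strand). The libraries gave normalized counts of 5211, 5074, 4821 and 5621 in sham, 5319, 6012, 5992 and 5478 in MI+PBS and 5964, 5856, 5474 and 5658 in MI+Agrin hearts. The 3 groups overlapped, with the lowest value in sham and the highest in MI+PBS hearts. The log2 difference was 0.14 ± 0.06 for MI+PBS against sham (adjusted p = 0.0812) and 0.15 ± 0.06 for MI+Agrin against sham (adjusted p = 0.0824). It did not pass in either, and passed on leaving out sham replicate 5, at 0.18 (adjusted p = 0.0383) and 0.19 (adjusted p = 0.0459), or, for MI+PBS against sham, MI+PBS replicate 1, at 0.17 (adjusted p = 0.0469). Of 8 macrophage markers 8 rose in each infarcted group against sham, beside 22.6% (MI+PBS) and 15.4% (MI+Agrin) of all genes higher. These markers summed to 8576 to 10642 in sham, 18299 to 20583 in MI+PBS and 13842 to 19238 in MI+Agrin hearts. Their part in the Pecam1 values was not tested.

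Emcn encodes endomucin, a sialomucin of capillary and venous endothelium (chr3:137341067-137432185, plus strand). Endomucin transcripts had normalized counts of 1151, 1376, 1129.6 and 1312 in sham, 1219.6, 1543, 1373 and 1200.5 in MI+PBS and 1231, 1067, 1089 and 983 in MI+Agrin hearts. The lowest values were in MI+Agrin hearts, which overlapped both other groups. The difference between MI+Agrin and MI+PBS hearts was -0.29 ± 0.10 (95% interval -0.49 to -0.08) and did not pass (adjusted p = 0.154), nor did that against sham (-0.18 ± 0.10, adjusted p = 0.166). The latter passed without MI+PBS replicate 2 and MI+Agrin replicate 1 (-0.24, adjusted p = 0.0404).

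Myct1 encodes a small membrane protein of endothelial and blood stem cells (chr10:5593775-5606904, plus strand). The 250 bases before the RefSeq start site (GRCm38.p6) are shown for the 4 members with a single start site in the table. Their counts of the core letters that ETS factors read ran from 0 in Cldn5 to 8 in Myct1. Capitals mark GGAA or its reverse complement TTCC, read on both strands, and all 4 genes lie on the plus strand, at chr10:5593478-5593727 for Myct1, chr16:18776597-18776846 for Cldn5, chr3:137340828-137341077 for Emcn and chr2:32646345-32646594 for Eng.
Myct1: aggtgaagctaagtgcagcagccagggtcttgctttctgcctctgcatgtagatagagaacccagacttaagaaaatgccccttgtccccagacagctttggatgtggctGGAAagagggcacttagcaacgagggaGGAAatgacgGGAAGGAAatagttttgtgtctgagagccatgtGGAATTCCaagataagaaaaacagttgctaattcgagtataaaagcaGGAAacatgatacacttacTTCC
Cldn5: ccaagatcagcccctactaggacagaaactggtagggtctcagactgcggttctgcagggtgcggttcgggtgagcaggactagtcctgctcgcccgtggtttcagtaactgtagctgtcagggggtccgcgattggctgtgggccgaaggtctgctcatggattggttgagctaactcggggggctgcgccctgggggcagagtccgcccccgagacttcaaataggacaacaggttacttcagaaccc
Emcn: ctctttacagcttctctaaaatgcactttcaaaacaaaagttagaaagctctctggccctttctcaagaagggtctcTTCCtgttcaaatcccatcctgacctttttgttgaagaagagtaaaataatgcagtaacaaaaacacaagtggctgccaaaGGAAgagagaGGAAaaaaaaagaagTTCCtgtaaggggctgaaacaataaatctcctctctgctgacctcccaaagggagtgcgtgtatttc
Eng: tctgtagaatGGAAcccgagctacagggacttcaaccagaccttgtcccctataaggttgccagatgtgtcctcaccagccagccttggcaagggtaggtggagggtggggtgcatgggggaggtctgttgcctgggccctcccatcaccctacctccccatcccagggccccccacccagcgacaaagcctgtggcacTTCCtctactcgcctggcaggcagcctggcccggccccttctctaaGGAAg
The Myct1 window holds 8 matches, the Emcn window 4, the Eng window 3 and the Cldn5 window 0. Among 32851 promoter windows of the same length, 93.4% hold at least 1 match, the median is 3 and 1.45% hold 8 or more. A match is a string of letters, not a measured binding site. Whether ETS factors act on these genes was not tested. The SOX core ACAAT, read on both strands, had 1 match in the Emcn window and 0 in those of Myct1, Cldn5 and Eng, and 27.7% of all windows hold it. Of the 9 members, 5 had an entry in the promoter table, Erg with 3 start sites, whose windows hold 0, 4 and 2 matches to GGAA.

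The normalized counts of Myct1 were 522, 481, 434 and 496 in sham, 326, 325, 382 and 322 in MI+PBS and 554, 726, 565 and 624 in MI+Agrin hearts. All 4 MI+PBS libraries lay below all 4 sham libraries, and all 4 MI+Agrin libraries lay above every library of both other groups. The means were 483 ± 36.7 (SD, n = 4) in sham, 339 ± 29.1 in MI+PBS and 617 ± 78.9 in MI+Agrin hearts. Myct1 fell by 0.51 ± 0.10 (log2) in MI+PBS against sham (adjusted p = 0.000958) and was higher by 0.86 ± 0.10 in MI+Agrin than in MI+PBS hearts (adjusted p = 0.000852). These calls held under all 23 alternatives, with values of -0.57 to -0.47 and 0.78 to 0.92. Against sham, MI+Agrin hearts were higher by 0.35 ± 0.10 (adjusted p = 0.0168), a call lost without sham replicate 4 (0.30, adjusted p = 0.0558). MI+Agrin replicate 3 had the highest value and MI+PBS replicate 3 stood above the other MI+PBS libraries.

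Eng encodes endoglin (chr2:32646595-32682669, plus strand, with 1.51% of its exon bases shared with Fpgs). Endoglin transcripts had normalized counts of 5822, 6664, 5822 and 6774 in sham, 6524, 6376, 6563 and 6451 in MI+PBS and 6861, 7197, 6597 and 6108 in MI+Agrin hearts. The groups overlapped, and the 4 MI+PBS libraries lay close together within the sham range. The log2 changes were 0.05 ± 0.07, 0.04 ± 0.07 and 0.09 ± 0.07 in MI+PBS against sham, MI+Agrin against MI+PBS and MI+Agrin against sham, with adjusted p-values of 0.558, 0.755 and 0.3. All 3 intervals lay between -0.10 and 0.24.

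Of 14 genes that signal with endoglin, 6 rose and 1 fell in MI+PBS against sham (50% called beside 44.4% of all genes, median 0.15). In MI+Agrin against sham 4 rose and 1 fell (35.7% beside 28.6%, median 0.24). In MI+Agrin against MI+PBS 0 of the 14 passed (beside 1.64% of all genes, median -0.01). Acvrl1, the gene of the endothelial type I receptor ALK1, had 1187 to 1355 in sham, 1567 to 1696 in MI+PBS and 1419 to 1639.5 in MI+Agrin normalized counts and rose by 0.37 ± 0.06 in MI+PBS hearts (adjusted p = 0.00032). Tgfbr1, the type I receptor of TGF-beta, rose by 0.64 ± 0.08 (adjusted p = 8.14e-05), Tgfbr2, the type II receptor, by 0.44 ± 0.09 (adjusted p = 0.00132) and Smad1, a BMP signal transducer, by 0.49 ± 0.10 (adjusted p = 0.00145). Id3, a target of BMP signalling, rose by 0.39 ± 0.07 in MI+Agrin against sham (adjusted p = 0.00222), where Id1 did not pass (0.24 ± 0.16, adjusted p = 0.277). The gene that fell was Smad9, in MI+PBS (-0.70 ± 0.19, adjusted p = 0.00848) and in MI+Agrin hearts (-0.59 ± 0.19, adjusted p = 0.0311). Bmpr2 (0.01), Smad5 (-0.04), Smad6 (-0.03), Smad7 (0.05), Gdf2 (-0.41) and Id1 (0.09) did not pass in MI+PBS against sham. Bmp10 did not pass either (2.66 ± 1.33, adjusted p = 0.123). It ranged over 9.1 to 2257 in sham, 1111 to 3963 in MI+PBS and 506 to 2700 in MI+Agrin normalized counts. Whether the part of the heart sampled differed between libraries was not tested. Fibroblasts express several of these genes. Activated fibroblast markers rose in 6 of 6 cases in MI+PBS and 5 of 6 in MI+Agrin against sham, beside 22.6% and 15.4% of all genes higher. They summed to 33162 to 50440.4 in sham, 118339 to 155231 in MI+PBS and 77224 to 124061 in MI+Agrin hearts, and their part in these counts was not tested.

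Sox17 encodes an SRY-related transcription factor of arterial endothelium (chr1:4490931-4497354, minus strand). Of its exon bases 16.8% are shared with Gm37587, so its counts are uncertain. Its normalized counts were 198, 167, 211 and 184 in sham, 263, 239.6, 269.8 and 260.2 in MI+PBS and 273, 279, 242 and 234 in MI+Agrin hearts. Every infarcted heart lay above every sham heart, and the infarcted groups overlapped. Sox17 rose by 0.44 ± 0.09 in MI+PBS against sham (adjusted p = 0.0021) and by 0.43 ± 0.09 in MI+Agrin against sham (adjusted p = 0.00498), and both calls held under all 23 alternatives. MI+Agrin against MI+PBS gave -0.01 ± 0.09, with a 95% interval of -0.21 to 0.19 (adjusted p = 0.972).

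Erg encodes an ETS transcription factor of endothelial cells (chr16:95359169-95586593, minus strand). Its normalized counts were 570.1, 562, 595 and 651 in sham, 605, 626, 474 and 446 in MI+PBS and 483, 512, 547 and 542 in MI+Agrin hearts. The MI+Agrin libraries all lay below the sham libraries, whereas the MI+PBS libraries spread over both ranges, with replicates 3 and 5 lowest of all 12. The difference of MI+Agrin against sham was -0.19 ± 0.10 and did not pass (adjusted p = 0.195). MI+PBS against sham gave -0.16 ± 0.10 (adjusted p = 0.243) and MI+Agrin against MI+PBS -0.03 ± 0.10 (adjusted p = 0.898).

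Of 16 other endothelial transcription factors tested, 1 rose and 4 fell in MI+PBS against sham (31.2% called beside 44.4% of all genes, median -0.06). In MI+Agrin against MI+PBS 1 rose (6.25% beside 1.64%, median 0.09). In MI+Agrin against sham 4 rose and 1 fell (31.2% beside 28.6%, median 0.06). Sox18, a close relative of Sox17, rose by 0.63 ± 0.16 in MI+Agrin against sham (adjusted p = 0.0131), and Lyl1, a basic helix-loop-helix factor of blood and endothelium, rose in both infarcted groups, by 0.44 ± 0.11 (adjusted p = 0.00489) and 0.53 ± 0.11 (adjusted p = 0.00367). Mef2c, which cardiomyocytes also express, fell by 0.41 ± 0.07 (log2) in MI+PBS hearts (adjusted p = 0.000429) and by 0.54 ± 0.07 in MI+Agrin hearts (adjusted p = 0.000316). The factor called in MI+Agrin against MI+PBS was Ets2, an ETS family member, at 0.31 ± 0.07 (adjusted p = 0.0455), a call that held under 8 of 23 alternatives.

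Setting each member against Cdh5 in the same library asks whether the members keep their proportions to 1 endothelium-restricted gene. The log2 ratio of Myct1 to Cdh5 was -3.53 ± 0.13 (SD, n = 4) in sham, -4.02 ± 0.20 in MI+PBS and -2.96 ± 0.07 in MI+Agrin hearts, and no group overlapped another. The ratio of Sox17 to Cdh5 was -4.88 ± 0.12 in sham, -4.41 ± 0.19 in MI+PBS and -4.22 ± 0.17 in MI+Agrin hearts, higher without overlap in both infarcted groups than in sham. Esam was also higher relative to Cdh5 without overlap in both, by 0.37 and 0.24, and Pecam1 by 0.37 in MI+Agrin against sham. Relative to Cdh5, the groups overlapped for Cldn5, Emcn, Eng and Erg in all 3 comparisons. By exact permutation of the group labels (two-sided, 70 assignments), these 8 differences without overlap had p = 0.0286, the smallest that 4 against 4 libraries allow, and 0 of 24 passed after adjustment over all 24 (adjusted p = 0.0857). At this floor even groups fully apart did not pass, so this count cannot show that the members kept their proportions. The share of all genes without overlap relative to Cdh5 was not computed.

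Cdh5 itself was called lower in MI+Agrin than in sham hearts, and part of this pattern depends on it as the reference. With Pecam1 as the reference, Myct1 still separated MI+PBS from sham (-0.65) and MI+Agrin from MI+PBS hearts (0.85) without overlap, but overlapped in MI+Agrin against sham (0.20, exact permutation p = 0.0857). Sox17 overlapped sham in both infarcted groups, and its differences were 0.31 and 0.29 (each exact permutation p = 0.0571), against 0.47 and 0.66 relative to Cdh5. The ratio of Esam to Pecam1 overlapped in MI+PBS against sham (0.20) and in MI+Agrin against sham, where its sign turned (-0.13), and was lower without overlap in MI+Agrin against MI+PBS (-0.33). Emcn was lower without overlap relative to Pecam1 in MI+Agrin against MI+PBS (-0.30) and against sham (-0.33), as was Erg in MI+Agrin against sham (-0.34). Cldn5 and Eng overlapped in all 3 comparisons with either reference. Against Pecam1, too, 0 of 24 differences passed after adjustment, with the same limit, and the smallest adjusted p was 0.098.

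**Figure D3:**
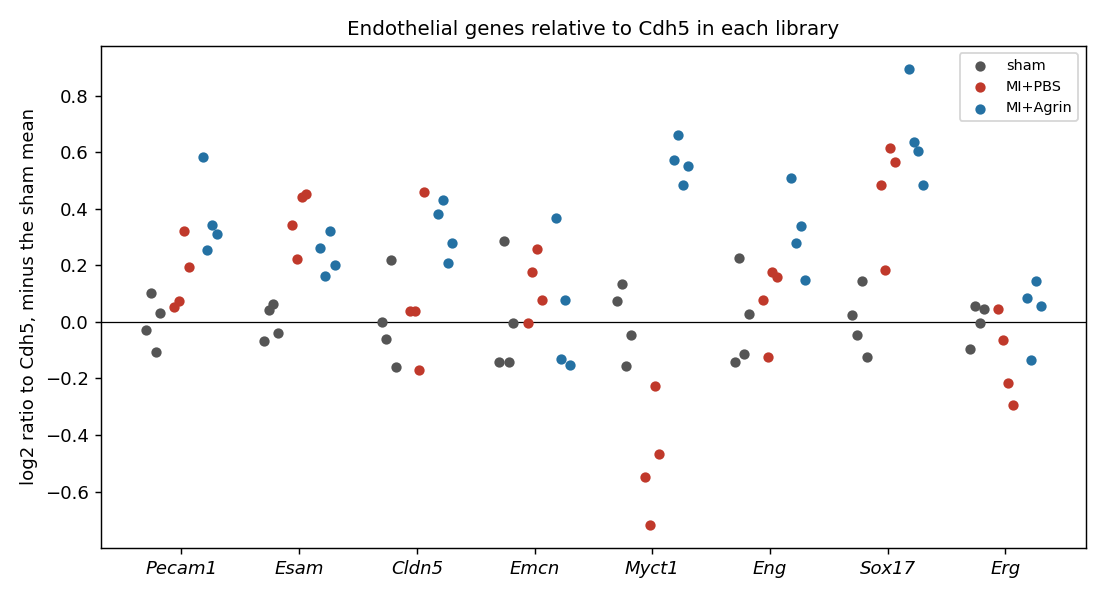
Log2 ratio of each other member to Cdh5 in each library (points), minus the mean of the 4 sham libraries, by group. With Cdh5 as the reference Myct1 separates all 3 groups and Sox17 and Esam lie above sham in both infarcted groups. Ratios to Pecam1 are given in the text and are not drawn. With that reference Myct1 overlaps between MI+Agrin and sham, and Sox17 and Esam overlap sham in both infarcted groups. Emcn and Erg then lie below sham in MI+Agrin.

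Pairs of members had correlations on both sides of 0. Over 36 pairs of members, Pearson's r of log2 levels over the 12 libraries had a median of 0.01. It ran from -0.77 for Myct1 with Esam, whose r within groups was 0.21, to 0.66 for Erg with Cdh5, whose r within groups was 0.67. After removal of group means the median was 0.04, the lowest r was -0.42 for Emcn with Cldn5 and the highest 0.71 for Esam with Cdh5. These are descriptions over 12 libraries that share groups and normalization.

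Among 11793 other genes with a mean of at least 50, the levels most like those of Myct1 over the 12 libraries were those of Tob1 (r = 0.95), Rassf9 (0.93) and Clec14a (0.93), with r within groups of 0.50, 0.56 and 0.74. For Esam they were Runx3, Cyth3 and Zfp697 (each 0.94), with r within groups of 0.61, 0.64 and 0.64. For Sox17 they were Adcy4 (0.93), Srrm2 (0.90) and Dgkq (0.90), with 0.68, 0.58 and 0.68 within groups. For Pecam1 they were Map6 (0.92), Rnf26 (0.88) and Sulf1 (0.88), for Cdh5 Sept10 (0.90), Cops5 (0.89) and Ddx10 (0.89), and for Emcn Osbpl5 (0.88), Myh10 (0.88) and Tm4sf1 (0.87). For Erg they were Cbx5 (0.92), Smchd1 (0.88) and G3bp2 (0.88). For Eng, Tmem203 (0.82), Ski (0.77) and Srp19 (0.76) were the most alike, and for Cldn5 Dnm2 (0.79), Hvcn1 (0.77) and Arl6ip4 (0.76). The last 2 members had the lowest r values with their nearest genes.

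Other endothelial surface and identity genes changed in both directions too. Of 27 tested, 7 rose and 4 fell in MI+PBS against sham (median 0.01), 3 rose and 2 fell in MI+Agrin against MI+PBS (0.05), and 4 rose and 2 fell in MI+Agrin against sham (0.10). Those called were 40.7%, 18.5% and 22.2% of the list in these comparisons, beside 44.4%, 1.64% and 28.6% of all genes tested. This list, too, was chosen with earlier results of these data known. Kdr, the gene of the VEGF receptor VEGFR2, had 5182 to 6296 in sham, 3207 to 4204 in MI+PBS and 5149 to 5818 in MI+Agrin normalized counts. It fell by 0.66 ± 0.09 (log2) in MI+PBS against sham (adjusted p = 0.00014) and was higher by 0.56 ± 0.09 in MI+Agrin than in MI+PBS hearts (adjusted p = 0.00756), the same directions as Myct1.

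Clec14a, a C-type lectin of vessels, ranged over 814 to 990.0 in sham, 679 to 821 in MI+PBS and 956 to 1255 in MI+Agrin hearts and was higher by 0.52 ± 0.10 in MI+Agrin than in MI+PBS (adjusted p = 0.0147). That call was lost without MI+Agrin replicate 3 (adjusted p = 0.0514) and with only the 8 libraries compared (adjusted p = 0.0523). S1pr1, a receptor of the barrier-stabilizing lipid sphingosine 1-phosphate, ranged over 2765 to 3163 in sham, 3729 to 4148 in MI+PBS and 1926 to 2447 in MI+Agrin hearts. It was lower in MI+Agrin than in MI+PBS hearts by a log2 change of -0.82 ± 0.08 (adjusted p = 0.000437) and lower than in sham hearts by -0.41 ± 0.08 (adjusted p = 0.00266). Cd93, a C-type lectin receptor also found on myeloid cells, rose by 0.76 ± 0.11 in MI+PBS against sham (adjusted p = 0.000166), and its change in MI+Agrin against MI+PBS (-0.50 ± 0.11, adjusted p = 0.0358) held under 10 of 23 alternatives. Tek, the gene of Tie2, had 2307 to 2446 in sham, 1642 to 2061 in MI+PBS and 1776 to 2119 in MI+Agrin normalized counts. It fell in MI+PBS against sham (-0.38 ± 0.07, adjusted p = 0.0011) and in MI+Agrin against sham (-0.27 ± 0.07, adjusted p = 0.016, and -0.22 with adjusted p = 0.0518 without MI+Agrin replicate 4), and did not pass between the infarcted groups (0.11 ± 0.07, adjusted p = 0.405).

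In MI+PBS against sham 20% of capillary, 20% of arterial, 50% of venous, 60% of lymphatic and 25% of endocardial markers were called, beside 44.4% of all genes tested. Of 10 capillary markers, 1 rose (Rgcc, 0.48 ± 0.17, adjusted p = 0.0333, a call that held under 15 of 23 alternatives) and 1 fell in MI+PBS against sham, and 1 fell in MI+Agrin against MI+PBS (10% beside 1.64% of all genes). The latter was Rgcc again, a cell cycle regulator enriched in capillaries, with 447 to 675 in sham, 641 to 880.5 in MI+PBS and 268 to 445 in MI+Agrin normalized counts and a log2 change of -1.25 ± 0.17 between the infarcted groups (adjusted p = 0.00255). Of 10 arterial markers, 1 rose (Jag1, a Notch ligand, 0.31 ± 0.09, adjusted p = 0.0136) and 1 fell (Dll4, a Notch ligand of arterial and tip cells, -0.49 ± 0.10, adjusted p = 0.00181) in MI+PBS against sham. Of 8 venous markers, 3 rose and 1 fell, with Selp, the leukocyte adhesion receptor P-selectin that platelets also hold, at 1.30 ± 0.21 (adjusted p = 0.000369). Of 5 lymphatic markers, 2 rose and 1 fell in each infarcted group against sham, and their medians were 0.15 and 0.07. In MI+Agrin against sham this was 60% beside 28.6% of all genes. Prox1, the transcription factor that sets lymphatic identity, fell in MI+PBS (-0.87 ± 0.12, adjusted p = 0.000148) and in MI+Agrin hearts (-0.46 ± 0.12, adjusted p = 0.0135). In sham hearts it was at 1560 to 1856 normalized counts, above Lyve1 at 557 to 771. The part of other cells, cardiomyocytes among them, in the Prox1 values was not tested. Flt4 (0.15 ± 0.06) and Mmrn1 (-0.22 ± 0.16) did not pass in MI+PBS against sham. Lyve1, a hyaluronan receptor that macrophages also carry, rose by 0.70 ± 0.17 in MI+PBS hearts (adjusted p = 0.00487), and Pdpn, which fibroblasts also express after injury, by 1.48 ± 0.33 (adjusted p = 0.00286). Of 4 endocardial markers, Nfatc1, a transcription factor of valve endocardium, rose by 0.25 ± 0.06 in MI+PBS hearts (adjusted p = 0.00354). The other 3, which did not pass, were at -0.35 (Npr3), -0.27 (Cytl1) and -0.16 (Hapln1), and the list median was -0.22. In MI+Agrin against MI+PBS 0 of 10 arterial, 0 of 8 venous, 0 of 5 lymphatic and 0 of 4 endocardial markers passed, beside 1.64% of all genes.

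**Figure D4:**
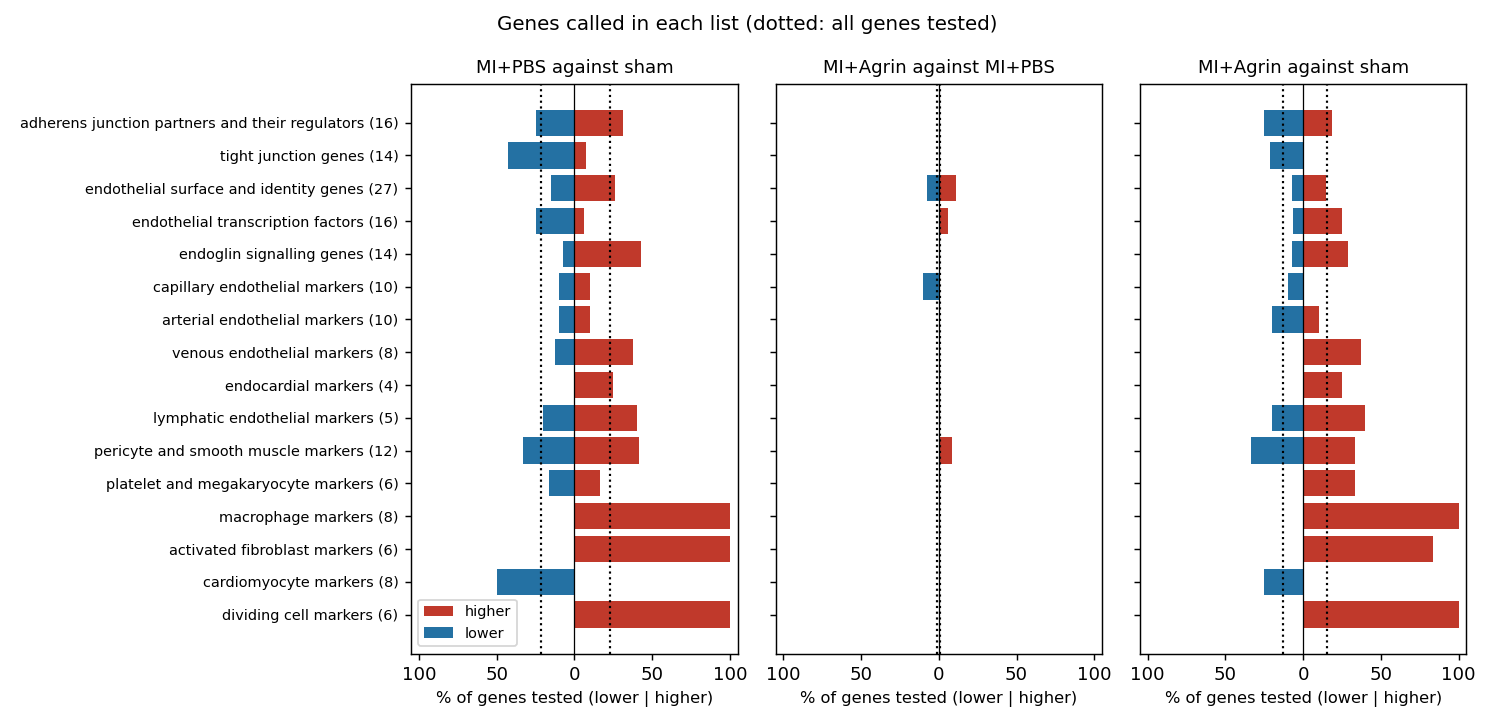
Percent of the genes tested in each list that were higher (right) or lower (left) at an adjusted p under 0.05, for the 3 comparisons, with dotted lines at the percent of all genes tested. Lists of macrophage, activated fibroblast and dividing cell markers are nearly all higher in both infarcted groups, whereas in MI+PBS against sham the endothelial and junction lists other than the endocardial one hold calls in both directions.

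Genes of other cells in the heart wall changed as well. Dividing cell markers rose in 6 of 6 cases in both infarcted groups against sham, beside 22.6% (MI+PBS) and 15.4% (MI+Agrin) of all genes higher. They summed to 757 to 1620.4 in sham, 3561 to 6171 in MI+PBS and 2233 to 3537 in MI+Agrin hearts. Pericyte and smooth muscle markers, which cover the wall cells of vessels, rose in 5 and fell in 4 of 12 cases in MI+PBS against sham. That was 75% called, beside 44.4% of all genes. The 4 that fell were Kcnj8 (-0.89 ± 0.07, adjusted p = 8.45e-06), Abcc9 (-0.85 ± 0.16, adjusted p = 0.000846), Vtn (-0.73 ± 0.14, adjusted p = 0.000947) and Rgs5 (-0.34 ± 0.10, adjusted p = 0.0157). Abcc9 was at 13340 to 14349 normalized counts in sham hearts, where Kcnj8 was at 849 to 916. The part of cardiomyocytes in the Abcc9 values was not tested. The 5 that rose included Cspg4 (0.59 ± 0.07, adjusted p = 4.64e-05), and Pdgfrb did not pass (0.19 ± 0.11, adjusted p = 0.194). Acta2, the smooth muscle actin gene that myofibroblasts also express, rose as well (adjusted p = 8.88e-05), with 3627 to 5406 in sham, 8791 to 11548 in MI+PBS and 5962 to 8523 in MI+Agrin normalized counts. The list summed to 70904 to 80945 in sham, 87041 to 95045 in MI+PBS and 81562 to 89745 in MI+Agrin hearts, most of it Des, the desmin gene, which cardiomyocytes also express strongly, at 35786 to 45807 in sham, 53059 to 59368 in MI+PBS and 47468 to 57889 in MI+Agrin. In MI+Agrin against MI+PBS 1 of these 12 passed (8.33% beside 1.64% of all genes), the pericyte potassium channel gene Kcnj8, which was higher. The part of these cells in the values of the members was not tested.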

How the data were processed

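Poly-A RNA of 12 mouse hearts was sequenced as 61 bp single reads, in 3 groups of 4 animals. The authors deposited a signal for each gene in each library, which the file headers call normalized reads. The submitters' processing notes name mm10 and the tools HTSeq, STAR 2.4.2a, cutadapt and DESeq2 1.10.1; no annotation or strand setting is given in the sources used here, so antisense reads may be included. In 11 libraries 100.00% of low values (up to 20 reads, tolerance 0.1 reads) were whole multiples of 1 step, and whole reads were recovered from these; sham replicate 2, whose step lay too near 1, was left out of tests on them. On these reads edgeR 4.0.16 called 5834, 192 and 3309 genes in MI+PBS against sham, MI+Agrin against MI+PBS and MI+Agrin against sham.

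Genes with a mean of at least 5 were kept, and log2(value + 1) of 12 libraries entered 1 model of group means in limma 3.58.1 with a trend (R 4.3.3), adjusted by Benjamini-Hochberg at 0.05. Alternatives were other pseudocounts and filters, TMM rescaling (median shift 0.00), no trend, edgeR, DESeq2 1.42.0, the 8 libraries compared, a replicate block and left-out libraries. Members and lists were chosen with earlier results of these data known. Named genes were all members, up to 4 genes per list and comparison with the smallest p among those past the threshold (from which examples were taken) and the 3 genes most like each member.  Des, Vtn, Rgs5, Pdgfrb, Npr3, Cytl1, Hapln1, Flt4, Mmrn1, Smad9, Bmpr2, Smad5, Smad6 and Id1 were named after their values were seen. So were Smad7, Gdf2, Bmp10, Ppbp, Itga2b, Gp1bb, Gp9, Myh6, Ryr2, Ttn and Actc1. Etv2, Ccl21a and Gp6 were not analysed here. Coordinates and exon lengths are from GENCODE M21 on mm10, promoters from RefSeq. Python 3.11.15 with matplotlib 3.10.9 drew the figures.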

Additional observations from a re-analysis of the deposited data

Results flagged for a closer look

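The Myct1 value of MI+PBS replicate 3, 382.41 normalized counts, stood apart from the other 3 libraries of its group, which ran from 322.29 to 325.56. The gap was 0.946 of the group's range, above Dixon's critical value for 4 samples. It was the only such value in 27 sets of 1 member in 1 group, and chance gives about 1 in 20. The value was still below all 4 sham libraries.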

How the results depend on the processing

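Of 621 values of members under alternative settings, 580 kept their direction and their side of the threshold, 18 lost the call, 4 gained one and 19 changed sign. Every change of sign was in a difference that had not passed. Without MI+PBS replicate 2 and MI+Agrin replicate 1, MI+Agrin against MI+PBS was 0.08 for Erg and -0.07 for Sox17, the latter in the reported direction. On leaving out single libraries, MI+PBS against sham ran from -0.08 to 0.01 for Cdh5 and from -0.02 to 0.19 for Cldn5; MI+Agrin against MI+PBS from -0.02 to 0.04 for Pecam1, from -0.09 to 0.12 for Cldn5, from -0.05 to 0.03 for Sox17 and from -0.12 to 0.05 for Erg; and MI+Agrin against sham from -0.01 to 0.06 for Esam. Of 2576 values of list genes, 2442 kept their side of the threshold and 134 lost the call. All belong to calls except those of Tek in MI+Agrin against MI+PBS, which passed in 0 of 23 alternatives. Leaving out single libraries gave 3 to 4 members called in MI+PBS against sham, 2 in MI+Agrin against MI+PBS and 1 to 3 in MI+Agrin against sham (1 without sham replicate 4). Genes called in MI+Agrin against MI+PBS, 245 as reported, were 602 with DESeq2, 106 with only the 8 libraries, 137 without both libraries named above, and 137 (without MI+Agrin replicate 3) to 327 without single libraries (145 without MI+PBS replicate 2). Replicate numbers did not pair the samples (r of same-numbered deviations -0.29 to 0.12); with the replicate number as a block, 75 genes and 1 member, Myct1, were called in that comparison. The cause of these shifts was not tested. With 4 animals per group, log2 differences within the intervals given for each gene were not excluded. An interval without 0 did not always pass: that of Emcn in MI+Agrin against MI+PBS ran from -0.49 to -0.08.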
